A study of Homo sapiens with 9 samples.

Results

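The genes described here are 10 components of the unfolded protein response of the endoplasmic reticulum: the stress sensors ERN1 and ATF6, the transcription factor XBP1, the chaperones and folding enzymes HSPA5, HSP90B1, CALR and PDIA4, the accessory folding factors DNAJB9 and SDF2L1, and the degradation factor HERPUD1. They were taken by gene symbol from the deposited table, where each symbol stood for 1 of the 48162 genes listed. All 10 passed the filter on low counts that left 15776 genes for testing. RNA was sequenced from SKMEL28, an established human melanoma cell line, grown in DMEM with 5% FBS. All groups were infected with pLKO.1 lentiviruses and selected in puromycin at 1 µg/ml for 3 days. The control group, shCont, carried a hairpin against GFP. In the shp16 group the hairpin was directed at p16, the cell cycle inhibitor encoded by CDKN2A. The third group, shp16+shATR, received hairpins against p16 and against ATR, a kinase of the DNA damage response. There were 3 libraries in each group, 9 in all. For its graph of lanosterol synthase (LSS) mRNA the study names a single experiment with technical replicates. Its sequencing methods do not give the kind of replicate for these libraries. The p-values are therefore read as measuring the spread between libraries and not between separate infections. Which ATR hairpin was used was not given in the sources used here.

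The endoplasmic reticulum folds proteins bound for membranes and secretion. When unfolded chains accumulate, the chaperone HSPA5, also called BiP, leaves the sensors that span its membrane. ERN1, better known as IRE1α, then removes an intron from the XBP1 messenger RNA, ATF6 is cut in the Golgi to release a transcription factor, and the kinase EIF2AK3, also called PERK, slows translation and favours that of ATF4. The resulting factors raise transcription of chaperones, disulfide isomerases and components of the degradation pathway, which makes the RNA of these targets a common readout of the response. Secretory and pigmented cells such as melanocytes pass much protein through this compartment.

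The ATF6 and XBP1 branches act through short promoter elements, so the promoters of the 10 genes were read from RefSeq (GRCh38.p14), from 250 bases before to 50 bases after each start. All 10 genes had an entry, with 12 promoters between them. The endoplasmic reticulum stress element (ERSE) was searched as CCAAT followed after any 9 bases by CCACG, its compact form ERSE-II as ATTGG followed after any 1 base by CCACG, and the unfolded protein response element (UPRE) as TGACGTG, each on both strands and without mismatch. ERSE stood in 27 of 35116 promoters (0.0769%), among them those of 4 of the 10 genes. ERSE-II stood in 19 promoters (0.0541%), with 2 of the 10 genes among them. UPRE stood in 692 promoters (1.97%) and in none of these 10 genes. No match in these promoters overlapped another. The matches with 8 flanking bases on each side are shown because they separate HSPA5, HSP90B1, CALR and XBP1, with one kind of element, from SDF2L1 and HERPUD1, with the other. They are written along the gene's strand, 5′ to 3′, with the fixed letters of the element in capitals.
HSPA5 ERSE: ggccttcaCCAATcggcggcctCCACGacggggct
HSP90B1 ERSE, distal: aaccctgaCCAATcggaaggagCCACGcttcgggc
HSP90B1 ERSE, proximal: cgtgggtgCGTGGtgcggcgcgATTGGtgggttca
CALR ERSE: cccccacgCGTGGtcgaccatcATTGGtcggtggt
XBP1 ERSE: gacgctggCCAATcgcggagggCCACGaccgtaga
SDF2L1 ERSE-II: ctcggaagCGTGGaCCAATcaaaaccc
HERPUD1 ERSE-II: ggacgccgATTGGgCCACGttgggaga

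These windows lie at chr9:125241383-125241417 on the minus strand (HSPA5), chr12:103930208-103930242 and chr12:103930313-103930347 on the plus strand (HSP90B1), chr19:12938376-12938410 on the plus strand (CALR), chr22:28800595-28800629 on the minus strand (XBP1), chr22:21642106-21642132 on the plus strand (SDF2L1) and chr16:56932017-56932043 on the plus strand (HERPUD1), all upstream of the start. The element began 66 bases before the start in HSPA5, 52 in XBP1 and 225 in CALR, and 194 and 89 in HSP90B1. It began 188 bases before the start in SDF2L1 and 117 in HERPUD1. In CALR, in SDF2L1 and in the proximal element of HSP90B1 it ran on the opposite strand. XBP1 carried it in only 1 of its promoters. No match was found for DNAJB9, ERN1, PDIA4 or ATF6, which says only that these letters are not in this window.

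The 250 bases before the start of HSPA5, at chr9:125241344-125241593 on the minus strand, are given in full. With all libraries, HSPA5 was the only member lower with an adjusted p under 0.05 by edgeR in both knockdown groups against shCont. On the normalized CPM scale, defined below, DNAJB9, XBP1, HERPUD1 and ATF6, too, had every knockdown library below every control. None of them had that call in both knockdown groups. On the FPKM scale, also defined below, this separation held for XBP1 and HERPUD1 but not for DNAJB9 and ATF6. The exact ERSE is in capitals.
HSPA5: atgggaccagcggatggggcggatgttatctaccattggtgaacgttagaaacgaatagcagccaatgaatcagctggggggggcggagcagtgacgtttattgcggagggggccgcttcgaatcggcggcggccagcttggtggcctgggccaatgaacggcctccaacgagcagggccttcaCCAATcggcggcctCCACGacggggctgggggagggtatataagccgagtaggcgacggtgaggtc

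Levels within a gene are given as CPM, counts scaled to the normalized library size. Those of the cell type markers are scaled to the library total. Library totals ranged from 17314662 to 23588174 counts, and the counts of the 10 genes ranged from 38, for ERN1 in shCont replicate 1, to 36100 in a library. A pair of libraries stood apart from the rest of their groups. The correlation of shCont replicate 1 with the other shCont libraries over genes was 0.941 and 0.952 against 0.995 between those. Its levels relative to each gene's median over all libraries fell with gene length (Spearman −0.58 over 9850 genes, against 0.02 to 0.21 in the other libraries). For shp16 replicate 1 the correlation was 0.983 to 0.984 against 0.998. Values without both of these libraries, which leaves 2 each in shCont and shp16, are therefore given beside the results. This choice was made after seeing the data. The libraries that remain are much alike. Chi-square per degree of freedom between counts was 1.94 for shp16 replicates 2 and 3, against 37.2 and 37.9 for pairs with replicate 1. For shCont it was 5.15, against 68.5 and 83.4. Dropping the deviating libraries thus shrinks the spread that the adjusted p-values and calls of that fit rest on. A fit with shp16 replicates 2 and 3 summed is also given. Of the targeted genes, ATR was lower in shp16+shATR than in shp16 (log2 fold change −1.12, adjusted p = 0.0128). CDKN2A, at 78.1 to 99.9 CPM in shp16 and 103 to 162 in shCont, did not pass the threshold between these (−0.48, adjusted p = 0.0723). It was called lower in shp16+shATR against shCont (−0.57, adjusted p = 0.0263). ATR itself was at 45.9 CPM in shCont replicate 1 against 93.5 and 96.4 in the other shCont libraries. All 8 melanoma markers were detected, with summed levels of 13496 to 14673 CPM in shCont, 7288 to 13352 in shp16 and 10750 to 13238 in shp16+shATR. Of 9 listed markers of other cell types, PTPRC and CD3E were at 0 in every library, and the summed level was 34.1 to 40.6, 29.8 to 49.2 and 32.0 to 36.3 CPM in the same order. LUM alone was at 24.4 to 43.9 CPM and was not called in any comparison. KRT5 and KRT14 were at 0 to 0.160 CPM in shCont and 0.352 to 3.06 in the knockdown libraries. Both were called higher in each knockdown group against shCont. DCN, at 0.0848 to 0.957 CPM, was called higher in shp16+shATR against shCont (adjusted p = 0.0266). The part of these differences in the results was not tested. In bulk RNA, fewer cells of a type and less RNA per cell cannot be told apart.

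Levels were compared between genes on the FPKM scale, which divides by gene length. In shCont the order ran from CALR at 668 ± 118 FPKM (SD, n = 3 here and for each mean below) through HSP90B1 at 403 ± 12.7, HSPA5 at 191 ± 2.55, PDIA4 at 172 ± 15.1, XBP1 at 75.7 ± 3.45, SDF2L1 at 73.2 ± 23.6, HERPUD1 at 34.4 ± 1.04, DNAJB9 at 15.96 ± 1.22 and ATF6 at 8.93 ± 0.660 to ERN1 at 1.498 ± 0.952. The chaperones were thus the most abundant members and the sensors the least. The ranges of the 3 libraries overlapped between HSPA5 and PDIA4 and between XBP1 and SDF2L1, and between no other neighbours. In shp16 PDIA4 averaged 179 ± 36.3 FPKM and HSPA5 146 ± 9.38, with overlapping ranges. In shp16+shATR every PDIA4 value (145 to 156 FPKM) lay above every HSPA5 value (138 to 142 FPKM).

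The first comparison, shp16 against shCont, asks how these genes differ with the hairpin against p16. HSPA5 and DNAJB9 fell, by 23.3% and 25.5%, none of the 10 rose, and 8 of 10 fold changes were negative. Of all genes tested, 14.8% were called, 7.59% lower and 7.23% higher. The median log2 fold change was −0.14 over the 10 genes and −0.02 over all genes tested. In CPM every shp16 library lay below every shCont library in 5 of them, HSPA5, DNAJB9, XBP1, HERPUD1 and ATF6. This held for 16.8% of all genes tested. In none of the 10 did every shp16 library lie above. In FPKM ATF6 overlapped (8.17 in shCont replicate 1 and 8.50 in shp16 replicate 2).

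HSPA5, the Hsp70 chaperone that binds unfolded chains and holds the sensors inactive, measured 775, 710 and 751 CPM in shCont, 564, 584 and 568 CPM in shp16, and 555, 535 and 550 CPM in shp16+shATR. The 6 knockdown libraries sat together, below all 3 controls. In shp16 the fall was 0.38 on the log2 scale (−0.38, standard error SE 0.0958, 95% interval −0.59 to −0.17, adjusted p = 0.0213), or −23.3%. HSPA5 lies on chromosome 9 (ENSG00000044574, minus strand). Without the libraries that stood apart the log2 fold change was −0.34 (SE 0.0535, adjusted p = 6.51e-05). The call was lost without shp16 replicate 2 (adjusted p = 0.0671), without shp16 replicate 3 (adjusted p = 0.0806) or without shp16+shATR library a (adjusted p = 0.0525). It was also lost with no filter on low counts (adjusted p = 0.0627), with shp16 replicates 2 and 3 summed (adjusted p = 0.0723), with only the 2 groups fitted (adjusted p = 0.102) and with an edgeR replicate block (adjusted p = 0.153), and the adjusted p over all alternatives ranged from 6.51e-05 to 0.153.

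DNAJB9, also called ERdj4, is a J-protein that stimulates HSPA5 and dampens ERN1. Its level was 41.2, 43.5 and 45.0 CPM in shCont against 28.3, 33.8 and 34.5 CPM in shp16. The groups did not overlap and shp16 replicate 1 was the lowest. The log2 fold change was −0.42 (SE 0.108, 95% interval −0.66 to −0.19, adjusted p = 0.0233), and −0.38 without the libraries that stood apart (adjusted p = 0.000813). The call was lost without any 1 of shCont replicates 2 and 3 and of the 3 shp16 libraries, where the adjusted p was between 0.0502 and 0.0755. It was also lost with shp16 replicates 2 and 3 summed (adjusted p = 0.0537), with no filter (adjusted p = 0.0554), by limma with 0.1 added (adjusted p = 0.0736) or with no filter (adjusted p = 0.0757), with only the 2 groups fitted (adjusted p = 0.0853) and with an edgeR replicate block (adjusted p = 0.153). DNAJB9 overlaps THAP5 and PNPLA8 on the opposite strand of chromosome 7, and whether the counting used strand was not given in the sources used here. Neither neighbour was called in this comparison (log2 fold change 0.12 for THAP5 and 0.16 for PNPLA8).

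HERPUD1, a membrane protein that gathers the ubiquitin ligase complex for degradation of misfolded proteins, came closest to the threshold among the others. It stood at 76.2, 74.7 and 75.6 CPM in shCont and at 53.4, 66.8 and 60.9 CPM in shp16. Each shp16 value was below each shCont value. The log2 fold change was −0.32 (SE 0.105, adjusted p = 0.0602), which did not pass, while without the libraries that stood apart it did (−0.24, adjusted p = 0.0109).

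The sensors and their transcription factor were not called. ATF6 was at 63.8, 66.5 and 69.9 CPM in shCont and 62.6, 62.1 and 58.4 CPM in shp16, a log2 fold change of −0.13 (SE 0.0949, adjusted p = 0.398). XBP1 had 180, 156 and 157 CPM in shCont and 153, 142 and 138 CPM in shp16, a log2 fold change of −0.19 (SE 0.102, adjusted p = 0.242), and it was called lower without the libraries that stood apart (−0.16, adjusted p = 0.0361). For both genes the groups were separate but close in CPM, while in FPKM those of ATF6 overlapped. Pseudogene copies drew few counts, 71 for XBP1P1, 64 for HSP90B2P and 1 for HSP90B3P over all libraries. Counts per gene do not tell the spliced from the unspliced XBP1 messenger. ERN1 was the scarcest, with 1.68, 8.12 and 7.99 CPM in shCont and 6.65, 7.73 and 8.92 CPM in shp16. Its positive log2 fold change of 0.40 (SE 0.405, 95% interval −0.49 to 1.29) rested on the low value in shCont replicate 1 and was −0.06 without that library.

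HSP90B1, CALR, PDIA4 and SDF2L1 overlapped between shCont and shp16. HSP90B1, the Hsp90 of the endoplasmic reticulum (GRP94), had 1320, 1153 and 1194 CPM in shCont and 933, 1182 and 1165 CPM in shp16 (log2 fold change −0.16, adjusted p = 0.413). Only shp16 replicate 1 was low. CALR, the lectin chaperone calreticulin, had 1595, 1116 and 1118 CPM against 1092, 1221 and 1190 CPM (−0.13, adjusted p = 0.595). PDIA4, a protein disulfide isomerase also called ERp72, had 573, 458 and 469 CPM against 425, 570 and 563 CPM (0.06, adjusted p = 0.826). SDF2L1, which works with J-proteins of this compartment, had 89.9, 54.7 and 46.6 CPM against 52.9, 60.0 and 62.4 CPM (−0.13, adjusted p = 0.72). In all 4 genes replicate 1 was the highest shCont library and also the lowest shp16 library. Without both, SDF2L1 (0.27, adjusted p = 0.016) and PDIA4 (0.29, adjusted p = 0.000314) were called higher while CALR was at 0.11 (adjusted p = 0.121) and HSP90B1 at −0.0014 (adjusted p = 0.989). The count then became 6 of 10, 2 higher and 4 lower, where 32.7% of 16104 genes tested were called.

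**Figure D1:**
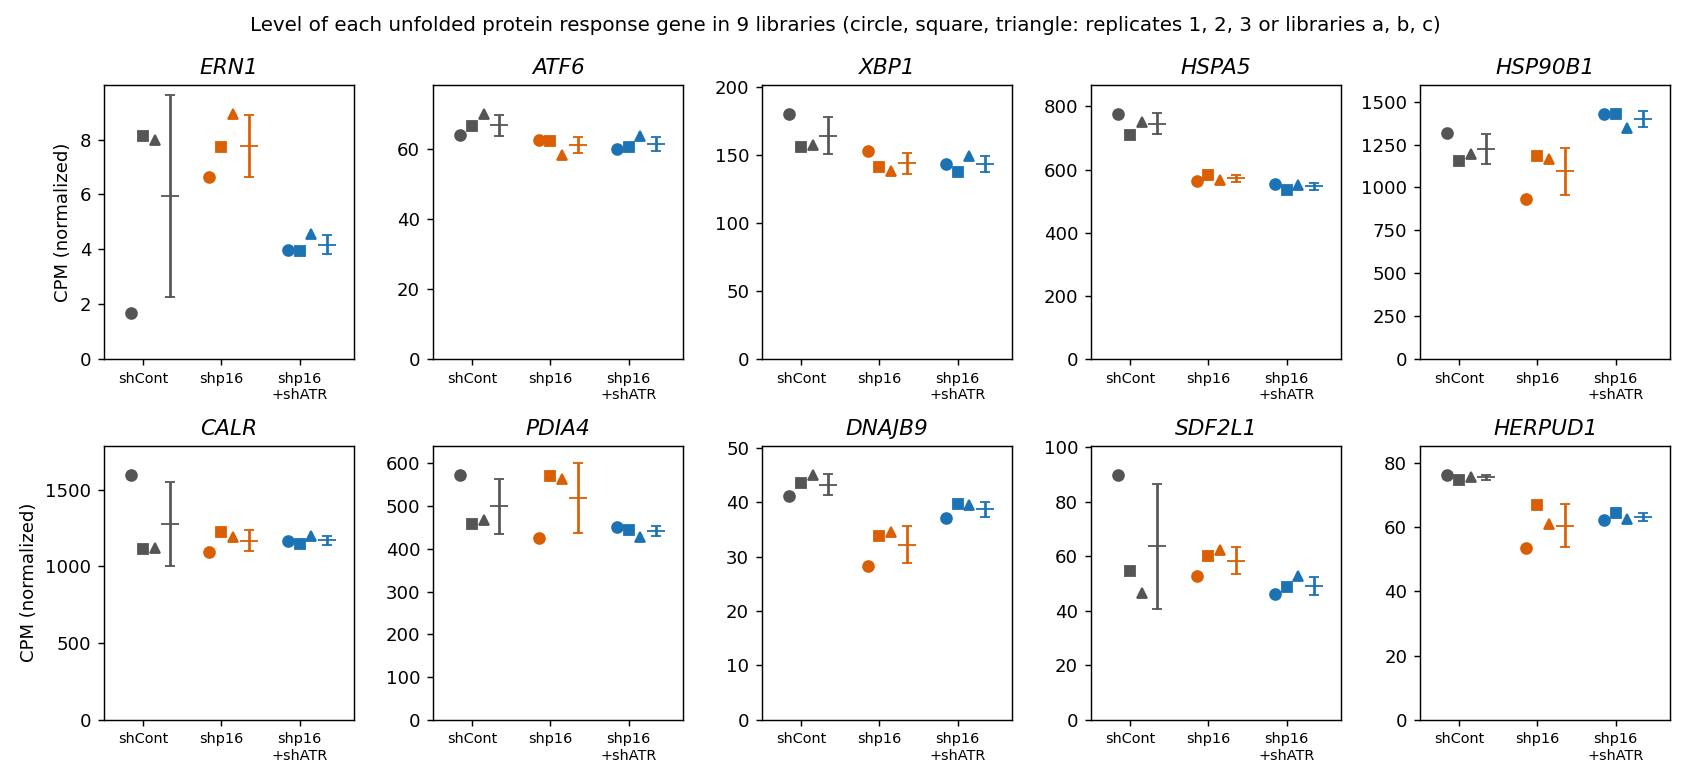
Normalized CPM (vertical axes, from 0) of each gene in the 3 libraries of shCont, shp16 and shp16+shATR, with the group mean and SD to the right of the points. HSPA5 is at 710 to 775 CPM in shCont and 535 to 584 CPM in the 6 knockdown libraries, and replicate 1 of shCont departs from the other 2 controls in ERN1, SDF2L1 and CALR.

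The second comparison, shp16+shATR against shp16, asks what the hairpin against ATR adds to that against p16. No member was called by edgeR's quasi-likelihood test, where 6.22% of all genes tested were (2.73% higher and 3.49% lower), and the smallest adjusted p was 0.115. Unadjusted p was under 0.05 for 2 genes, HSP90B1 and DNAJB9, both positive, and DESeq2 called 1, HSP90B1. The signs were divided, 5 and 5, with a median log2 fold change of −0.004 against 0.002 over all genes. In CPM the libraries were separate for 2 genes with higher and 3 with lower values in shp16+shATR. Of all genes tested, 17.6% and 20.1% were separate in those directions. In FPKM HSPA5 and SDF2L1, among the 3 with lower values, overlapped.

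HSP90B1 was at 1426, 1426 and 1348 CPM in shp16+shATR against 933, 1182 and 1165 CPM in shp16. All 3 shp16+shATR values exceeded every value of the other groups. The log2 fold change was 0.36 (SE 0.122, 95% interval 0.09 to 0.62, adjusted p = 0.115) and, without the libraries that stood apart, 0.25 (SE 0.049, adjusted p = 0.000845), which passed. DNAJB9 had 37.1, 39.6 and 39.4 CPM in shp16+shATR, above all shp16 values and below all shCont values. In FPKM it overlapped with shCont. Its log2 fold change against shp16 was 0.27 (SE 0.109, adjusted p = 0.193), and it did not pass without the libraries that stood apart (0.18, adjusted p = 0.0713).

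Between the knockdown groups HSPA5 differed by −0.07 on the log2 scale with a 95% interval of −0.27 to 0.14 (adjusted p = 0.774). Its libraries did not overlap in CPM. In FPKM they did, with 135 in shp16 replicate 1 and 138 to 142 in shp16+shATR. ERN1 was at 3.98, 3.94 and 4.56 CPM in shp16+shATR and so below every shp16 value, with a log2 fold change of −0.90 (SE 0.416, 95% interval −1.81 to 0.01, adjusted p = 0.256). It passed without the libraries that stood apart (−1.01, adjusted p = 5.72e-05). Leaving out shCont replicate 1 alone, a library of neither group that enters through the shared estimate of spread, gave 3 calls, where 19.9% of all genes tested were called: HSP90B1 and DNAJB9 higher and ERN1 lower (−0.90, adjusted p = 0.00136).

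SDF2L1 had 46.1, 48.7 and 52.6 CPM in shp16+shATR (log2 fold change −0.25, adjusted p = 0.55) and PDIA4 had 451, 444 and 429 CPM (−0.23, adjusted p = 0.377). In CPM the SDF2L1 values lay just under the lowest shp16 value. In FPKM they overlapped (57.3 in shp16 replicate 1 and 59.8 in shp16+shATR replicate 3). The PDIA4 values lay between shp16 replicate 1 and the other shp16 libraries. Both were called lower without the libraries that stood apart (SDF2L1 −0.32, adjusted p = 0.00321, and PDIA4 −0.37, adjusted p = 1.11e-05), so that 4 of 10 were called there, where 26.7% of all genes tested were. XBP1 (143, 138 and 149 CPM), HERPUD1 (62.2, 64.4 and 62.6 CPM), CALR (1162, 1145 and 1199 CPM) and ATF6 (60.0, 60.5 and 63.7 CPM) had log2 fold changes between −0.01 and 0.06 and overlapped with shp16.

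**Figure D2:**
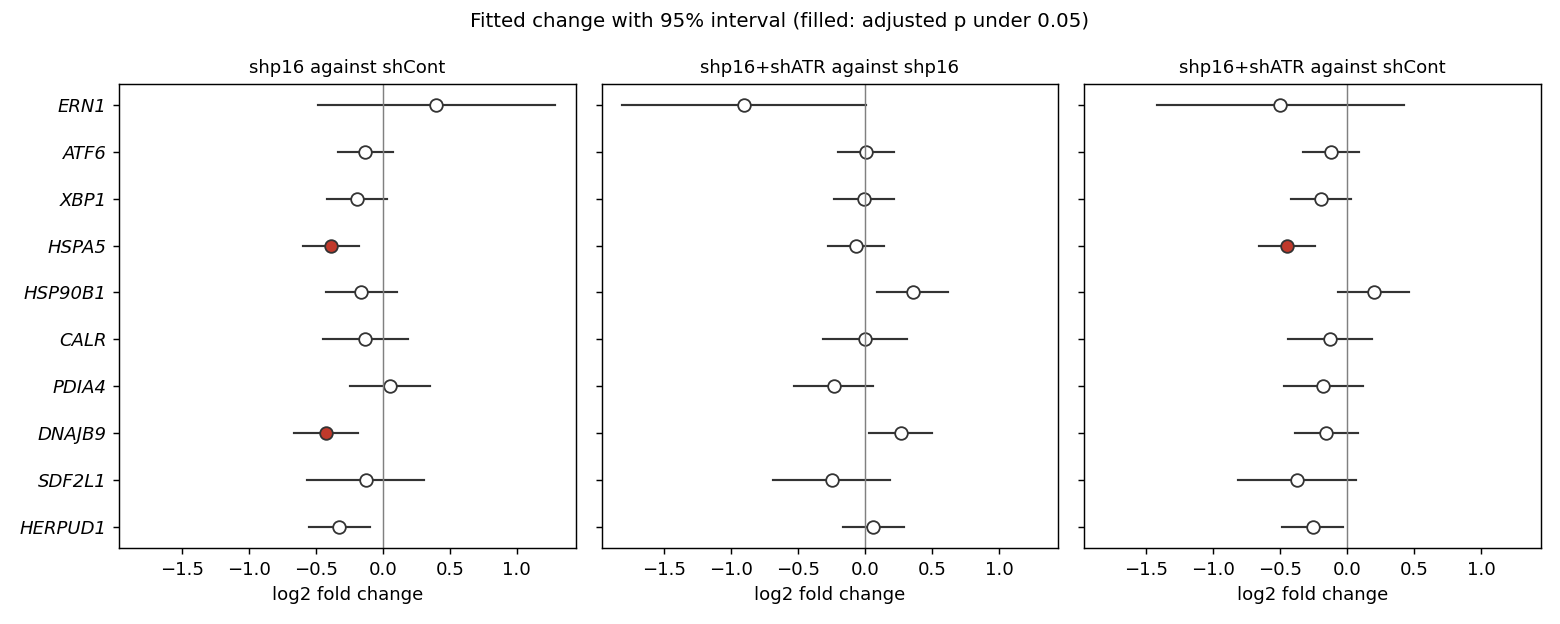
Fitted log2 fold change (horizontal axis) with its 95% interval for each gene in the 3 comparisons, filled where the adjusted p was under 0.05. HSPA5 and DNAJB9 are filled in shp16 against shCont, no gene is filled in shp16+shATR against shp16, and HSPA5 alone is filled in shp16+shATR against shCont.

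The combined knockdown was also set against shCont, with the same shCont libraries as the first comparison and the same shp16+shATR libraries as the second. HSPA5 was the only member called, at −0.45 on the log2 scale (SE 0.0958, 95% interval −0.66 to −0.24, adjusted p = 0.00589) or −26.7%, where 23.6% of all genes tested were called (10.9% higher and 12.7% lower). It was called in each of the 22 alternatives run. Of the other members, 8 had negative fold changes and HSP90B1 a positive one (0.20, SE 0.122, adjusted p = 0.277). HERPUD1 was at −0.26 (adjusted p = 0.0953) and SDF2L1 at −0.37 (SE 0.2, adjusted p = 0.205). Without shCont replicate 1 alone SDF2L1 was at −0.047 (adjusted p = 0.763). In CPM the groups did not overlap in 6 genes with lower values and in 1 with higher, HSP90B1. Of all genes tested, 21.5% and 20% were separate in those directions. In FPKM DNAJB9 overlapped (14.8 in shp16+shATR replicate 2 and 14.6 in shCont replicate 1). So did ATF6 (8.35 in shp16+shATR replicate 3 and 8.17 in shCont replicate 1). Without the libraries that stood apart 7 members were called, where 44.3% of all genes tested were: HSP90B1 higher (0.25, adjusted p = 0.000421) and HSPA5, DNAJB9, XBP1, ERN1, HERPUD1 and ATF6 lower.

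**Figure D3:**
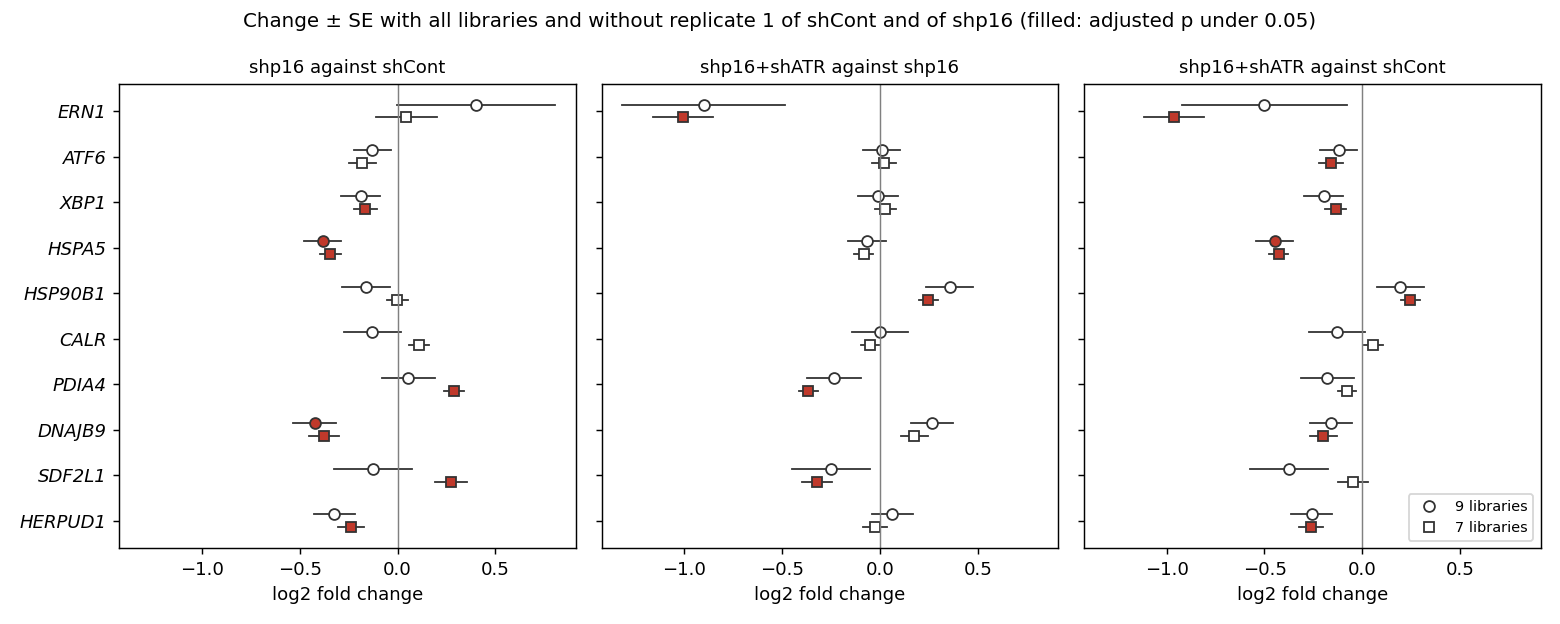
Log2 fold change ± SE of each gene from all 9 libraries (circles) and from the 7 libraries left without replicate 1 of shCont and of shp16 (squares), filled where the adjusted p was under 0.05. HSPA5 keeps its place in every panel, whereas SDF2L1 in shp16 against shCont moves from −0.13 to 0.27.

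A ratio of counts within a library does not depend on scaling between libraries, and 3 ratios were compared between groups by two-sided exact permutation tests, which cannot give a p below 0.1 with 3 libraries against 3. The HSP90B1 to HSPA5 ratio, chosen after the values were seen, was 1.70, 1.62 and 1.59 in shCont, 1.66, 2.03 and 2.05 in shp16 and 2.57, 2.67 and 2.45 in shp16+shATR. Every shp16+shATR value lay above the others. The mean log2 difference was 0.43 from shp16 (exact p = 0.1) and 0.64 from shCont (exact p = 0.1), and 0.22 between shp16 and shCont, which overlapped (exact p = 0.2). Over the 9 tests of ratios, Benjamini-Hochberg adjustment gave 0.15 for each exact p of 0.1.

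The same chaperone families also have members outside the endoplasmic reticulum. HSPA8, the constitutive Hsp70 of the cytosol, was not called in any comparison with all libraries (log2 fold change −0.18 in shp16 and −0.12 in shp16+shATR against shCont). Without the libraries that stood apart it was called lower in shp16 against shCont (−0.26, adjusted p = 0.00241). In that fit it was also called higher in shp16+shATR than in shp16 (0.18, adjusted p = 0.0228). The HSPA5 to HSPA8 ratio was 0.409, 0.424 and 0.413 in shCont, 0.305, 0.402 and 0.387 in shp16 and 0.340, 0.339 and 0.313 in shp16+shATR. All knockdown libraries were below all controls, by −0.20 on the log2 scale in shp16 and −0.33 in shp16+shATR (exact p = 0.1 each), and without shp16 replicate 1 the first of these was −0.07. HSP90AB1, the constitutive cytosolic Hsp90, rose in shp16 (0.53, SE 0.126, adjusted p = 0.017) and stood higher in shp16+shATR against shCont (0.55, adjusted p = 0.00855). The HSP90B1 to HSP90AB1 ratio was 0.868, 0.823 and 0.801 in shCont, 0.376, 0.606 and 0.604 in shp16 and 0.662, 0.697 and 0.598 in shp16+shATR. Both knockdown groups lay below shCont, by −0.69 and −0.35 on the log2 scale (exact p = 0.1 each), and they overlapped with each other (0.33, exact p = 0.3). Without shp16 replicate 1 the first difference was −0.46 and that between the knockdown groups 0.11.

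HSP90AA1, the inducible cytosolic form, was at 0.38 in shp16 (adjusted p = 0.12), or 0.13 without the libraries that stood apart (adjusted p = 0.161), and was called in shp16+shATR against shCont (0.54, adjusted p = 0.0236). Without those libraries it was also called higher in shp16+shATR than in shp16 (0.34, adjusted p = 0.000684). In mitochondria the Hsp70 HSPA9 was near 0 in all comparisons (log2 fold change −0.002 to 0.05) and the Hsp90 TRAP1 rose in shp16 (0.62, SE 0.158, adjusted p = 0.0233) and was higher in shp16+shATR against shCont (0.55, adjusted p = 0.0251). Of 12 cytosolic heat shock genes tested, 3 were called higher and 0 lower in shp16 against shCont, with a median log2 fold change of 0.16, where 7.23% of all genes tested were called higher and 7.59% lower. For 10 mitochondrial chaperones and proteases the count was 1 higher and 0 lower and the median 0.08.

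**Figure D4:**
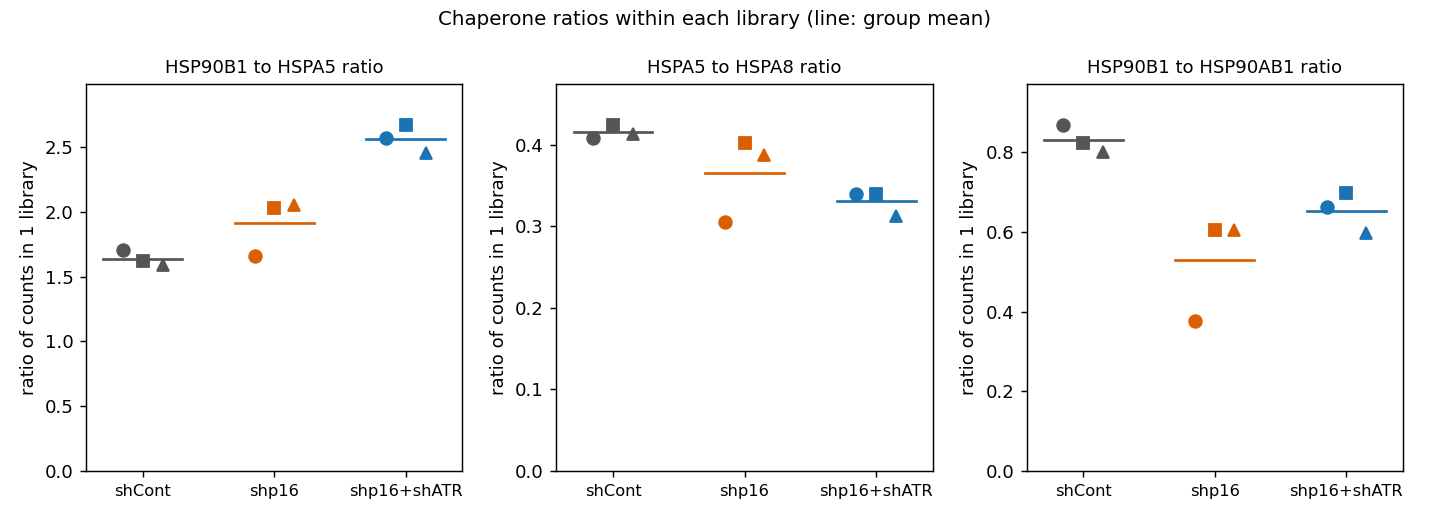
Ratio of counts within each library (vertical axes, from 0) for HSP90B1 to HSPA5, HSPA5 to HSPA8 and HSP90B1 to HSP90AB1, with a line at each group mean. The HSP90B1 to HSPA5 ratio is 1.59 to 1.70 in shCont and 2.45 to 2.67 in shp16+shATR, and shp16 replicate 1 is the lowest point in both of the other panels.

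The rest of the pathway was read from 4 lists of 77 genes, of which 76 were tested. In shp16 against shCont 5 were called higher and 5 lower (13.2%, against 14.8% of all genes tested), with a median log2 fold change of −0.06. Among 15 sensors and regulators tested, CHAC1, ATF3 and CREB3L2 were higher and PPP1R15A lower. The 20 folding enzymes gave TXNDC5 higher and ERO1B lower, the 18 degradation factors EDEM1 higher and ERLEC1 lower, and the 23 translocation and glycosylation factors SEC61G and SPCS3 lower. CREB3L2, EDEM1, ERLEC1 and SPCS3 are named after their values were seen.

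The largest rises were in scarce transcripts. CHAC1, a glutathione-degrading enzyme and target of the PERK branch, was at 1.06, 1.08 and 0.450 CPM in shCont, 3.90, 5.55 and 6.34 CPM in shp16 and 0.980, 1.30 and 1.02 CPM in shp16+shATR. Only the shp16 libraries were high. The log2 fold change was 2.595 (SE 0.318, adjusted p = 0.000287) in shp16 against shCont and −2.24 (SE 0.31, adjusted p = 0.00224) in shp16+shATR against shp16, comparisons that share the shp16 libraries. ATF3, a stress-induced transcription factor, had 1.37, 1.95 and 1.65 CPM in shCont, 3.06, 4.74 and 3.85 CPM in shp16 and 1.38, 1.601 and 1.43 CPM in shp16+shATR, again high in shp16 only. Its log2 fold changes were 1.23 (adjusted p = 0.00551) and −1.39 (adjusted p = 0.00683). TXNDC5, a disulfide isomerase, rose by 0.83 in shp16 (adjusted p = 0.00256).

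PPP1R15A, known as GADD34, directs the phosphatase that reverses the translational block. It was at 181, 129 and 126 CPM in shCont, 68.7, 92.6 and 88.6 CPM in shp16 and 79.0, 76.6 and 71.7 CPM in shp16+shATR. All knockdown libraries were below all controls, and it fell by 0.80 on the log2 scale in shp16 (adjusted p = 0.00575) and by 0.94 in shp16+shATR against shCont (adjusted p = 0.00134). Also lower in shp16 were ERO1B, an oxidase that recharges disulfide isomerases (−0.72, adjusted p = 0.0301) and SEC61G, a subunit of the translocation channel (−0.68, adjusted p = 0.0205). Without the libraries that stood apart the falls in shp16 were smaller for PPP1R15A (−0.49, adjusted p = 7.58e-06) and SEC61G (−0.35, adjusted p = 0.000489). That fit also called PPP1R15A (−0.27, adjusted p = 0.00212) and TXNDC5 (−0.38, adjusted p = 0.0403) lower in shp16+shATR than in shp16.

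EIF2AK3, ATF4 and DDIT3 of the PERK branch were not called in any comparison with all libraries. EIF2AK3 was at 20.5 to 39.4 CPM in shCont, 31.2 to 35.2 in shp16 and 26.4 to 30.5 in shp16+shATR. ATF4, its transcription factor, was at 250, 192 and 176 CPM in shCont, 121, 242 and 235 CPM in shp16 and 213, 221 and 177 CPM in shp16+shATR. Replicate 1 was the low shp16 library, and without the libraries that stood apart ATF4 was called higher in shp16 (0.37, adjusted p = 0.00142), as was DDIT3, the factor CHOP (0.47, adjusted p = 0.0353). In that fit EIF2AK3 (−0.29, adjusted p = 0.0086) and ATF4 (−0.23, adjusted p = 0.021) were called lower in shp16+shATR than in shp16. EIF2AK3 was there also called lower in shp16+shATR against shCont (−0.45, adjusted p = 0.000109). With all libraries the log2 fold change in shp16 was −0.05 for ATF4 (adjusted p = 0.911) and −0.08 for DDIT3 (adjusted p = 0.881).

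For the effect of adding shATR the 4 lists gave 1 gene higher and 2 lower (3.95%, against 6.22% of all genes tested), with a median of 0.06. The lower genes were CHAC1 and ATF3. The higher gene was OSTC, a subunit of the oligosaccharyltransferase that attaches N-glycans, at 107.5, 112 and 110.03 CPM in shp16+shATR and 84.9, 83.0 and 81.7 CPM in shp16, without overlap (log2 fold change 0.40, SE 0.0978, adjusted p = 0.0331). In shp16+shATR against shCont 6 were higher and 10 lower (21.1%, against 23.6%). Without the libraries that stood apart the lists gave 18 higher and 21 lower in the first comparison (51.3%, against 32.7% of all genes tested) and 19 higher and 13 lower in the second (42.1%, against 26.7%).

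**Figure D5:**
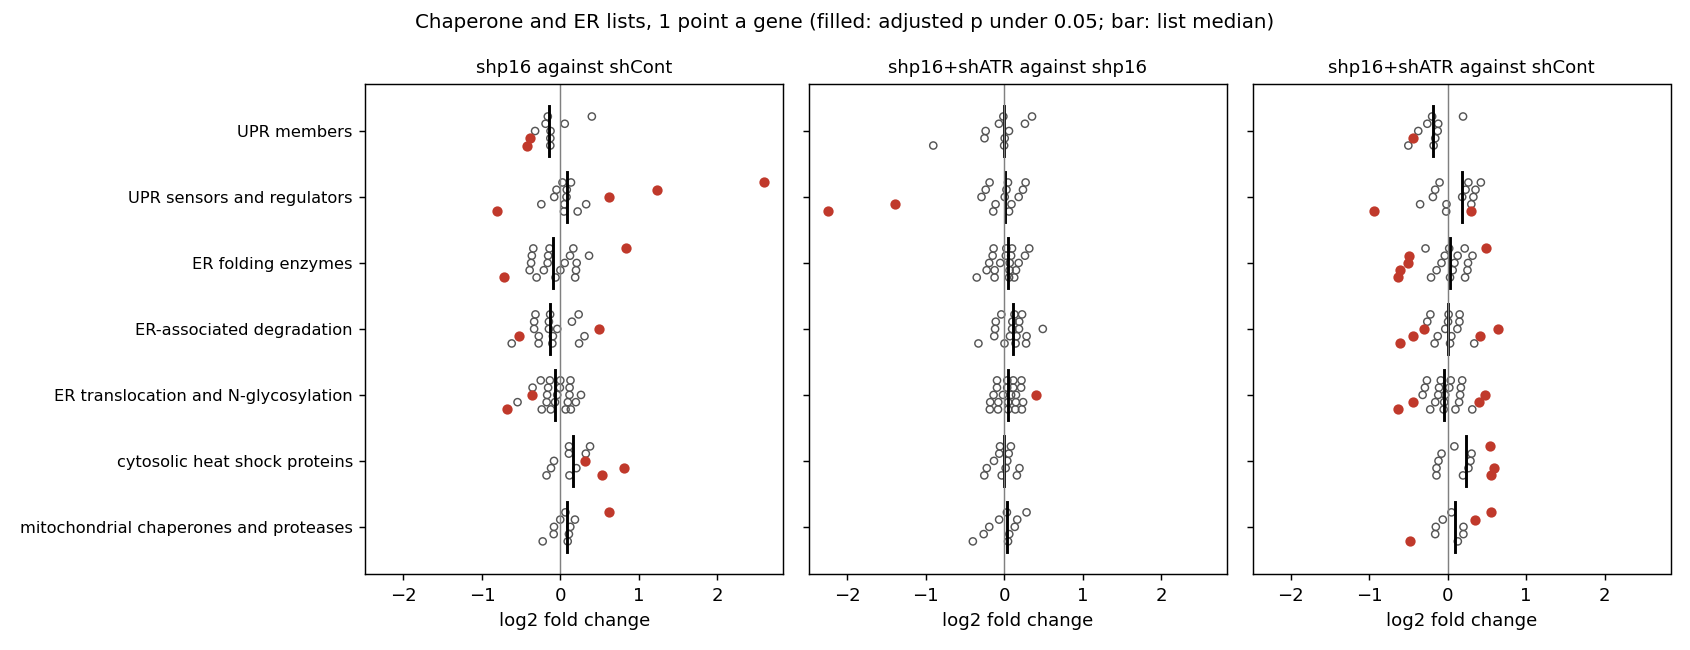
Log2 fold change (horizontal axis) of each gene of the 10 members, of the 4 wider lists of the pathway and of the cytosolic and mitochondrial chaperone lists, filled where the adjusted p was under 0.05, with a bar at each list's median. CHAC1 is the point at 2.595 in shp16 against shCont and at −2.24 in shp16+shATR against shp16, and most other points lie within 1 of 0.

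The genes that share an exact element in the promoter were then followed, a grouping made after the values of the 10 genes were seen. ERSE occurred in the promoters of 25 gene symbols, of which 16 were tested. In shp16 against shCont 2 of these, HSPA5 and ERO1B, were called lower and 0 higher, where 7.59% of all genes tested were called lower and 14.8% in all, with a median log2 fold change of −0.14. For the 12 that are not among the 10 genes the median was −0.03. In shp16+shATR against shp16 the median over the 16 was −0.02. ERSE-II occurred for 19 symbols, with 13 tested. Of these, 3 were called lower and 0 higher in shp16 against shCont, where 7.59% of all genes tested were called lower. The 2 members among them, SDF2L1 and HERPUD1, were not called. Adding shATR to shp16 gave 2 of the 13 called lower, where 3.49% of all genes tested were. In shp16+shATR against shCont 4 of the 16 genes with ERSE were called lower, and with ERSE-II 2 were called lower and 1 higher, where 12.7% of all genes tested were called lower and 10.9% higher. Of the 2 members that fell in shp16, HSPA5 carried the element and DNAJB9 did not.

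The genes whose pattern over the 9 libraries was most like that of HSPA5, by Pearson correlation of log2 CPM among 10727 genes with a mean of at least 5 CPM, were DUSP10 (0.992), EMILIN2 (0.988), AK5 (0.988), GPC1 (0.987) and GLB1L2 (0.987). None of them is on the lists of the pathway. The correlation is a description of libraries that share the groups, so genes that separate shCont from both knockdown groups rank high by construction.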

How the data were processed

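RNA of 9 SKMEL28 libraries was measured. Novogene prepared the NEBNext libraries, sequenced them and processed the reads. The submitters' processing notes name STAR 2.6.1, GRCh38 and DESeq2, whereas the gene positions in the deposited table reach 249231242 on chromosome 1, past the last RefSeq gene end there in GRCh38.p14 (248937099), so no coordinates of that table are printed. The counter, annotation and use of strand were not given in the sources used here.

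The authors deposited raw read counts per gene without normalization, and FPKM values, which equal the counts scaled by deposited gene length and library total (largest relative difference 4.22e-07 over the 6 numbered count columns). The 3 shp16+shATR count columns share 1 name and are called libraries a, b and c in table order.

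Counts were filtered with filterByExpr, normalized by TMM and tested in edgeR 4.0.16 (R 4.3.3) by quasi-likelihood, with 1 coefficient per group over all 9 libraries and Benjamini-Hochberg adjustment over 15776 genes at 0.05. Values in CPM use the TMM library sizes, except those of the cell type markers, which use the library totals. Fold changes are fitted, and 95% intervals are from that fit. Alternatives were DESeq2 1.42.0, limma 3.58.1 on log2 FPKM with 1 or 0.1 added, other normalizations and filters, a replicate block, and libraries left out in turn. Promoter searches used python 3.11.15. The procedure was tested on simulated counts without deviating libraries, so that test does not cover the libraries that stood apart.

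The 10 genes and all lists were chosen with earlier results of these data known. Named besides them were CDKN2A, ATR, their cytosolic and mitochondrial counterparts, the 3 largest called rises and falls of the 4 wider lists in each of the first 2 comparisons, EIF2AK3, ATF4, DDIT3 and the 5 genes most like HSPA5. THAP5, PNPLA8, KRT5, KRT14, LUM, DCN, PTPRC and CD3E were named as checks. No explanation was weighed.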

Additional observations from a re-analysis of the deposited data

How the results depend on the processing

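Over 23 alternatives, 590 of 670 values of single members kept their direction and their side of the threshold, 30 passed it only there, 18 missed it only there and 32 turned their sign. In shp16 against shCont the HSPA5 log2 fold change stayed between −0.44 and −0.34 and was called in 16 of 23 alternatives, and that of DNAJB9 stayed between −0.48 and −0.34 and was called in 12. HSP90B1 in shp16+shATR against shp16 stayed between 0.25 and 0.41 and was called in 4 of 22.

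Of 9 same-numbered pairs of libraries, 3 had deviations from their group means that correlated over 0.1 (range −0.577 to 0.524). Such deviations sum to 0 within a group, and replicate 1 stood apart in shCont and in shp16. The check therefore cannot show whether the replicate numbers pair the libraries. With a replicate block in edgeR, 423 genes and 0 members were called in shp16 against shCont, and with a replicate block in limma 1465 genes and 2 members (HSPA5 and DNAJB9) there and 477 genes and 0 members in shp16+shATR against shp16.

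For shp16 against shCont, 0 members were called with no filter on low counts, with only the 2 groups fitted or with shp16 replicates 2 and 3 summed, and 1 by limma with 0.1 added. Genes called there were 1186 with only the 2 groups, 1368 with the sum, 3639 with the trend of GC content and length removed and 5264 without both replicate 1 libraries, where 6 members were called. For shp16+shATR against shp16, members called were 1 by DESeq2, 1 with no filter, 2 with only the 2 groups and 4 without both, and genes called were 1508 by DESeq2, 2878 with only the 2 groups, 4304 without both, 399 with the sum and 2110 with the trend removed. For shp16+shATR against shCont, 2 members were called by limma with no filter and 2 with the trend removed, and 7 members and 7130 genes without both. Leaving out 1 library gave 0 to 3, 0 to 3 and 1 to 3 members and 1344 to 4192, 292 to 3223 and 2354 to 5395 genes. The cause was not tested, other than that the sum and the left-out libraries leave fewer libraries. Leaving out 1 library moved the HSP90B1 to HSPA5 ratio between 0.33 and 0.48 in shp16+shATR against shp16.

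Signs turned for PDIA4 in shp16 against shCont with upper-quartile scaling (−0.0041) and the sum (−0.0089), for SDF2L1 without both (0.27) and with the trend removed (0.069), and for CALR without both (0.11). Against shp16, in shp16+shATR, they turned for XBP1 by DESeq2 (0.00024), with upper-quartile scaling (0.0297) and without both (0.029), for CALR with no filter (−0.014), only the 2 groups (−0.0014), without both (−0.052) and with the trend removed (−0.053), for ATF6 with no filter (−0.0063) and the sum (−0.00303), and for HERPUD1 without both (−0.024). CALR turned in shp16+shATR against shCont without both (0.057). Leaving out 1 library moved ERN1 between −0.058 and 0.70, SDF2L1 between −0.31 and 0.20, PDIA4 between −0.013 and 0.18 and CALR between −0.22 and 0.058 in shp16 against shCont, XBP1 between −0.041 and 0.033, HERPUD1 between −0.0196 and 0.14, CALR between −0.047 and 0.032 and ATF6 between −0.025 and 0.031 in shp16+shATR against shp16, and CALR between −0.22 and 0.061 in shp16+shATR against shCont.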
